A study of Homo sapiens with 44 samples.

Results

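Proteasome subunit genes were followed in castration-resistant VCaP tumors under vehicle, enzalutamide and ARN-509. The members were all genes of the count table named PSMA, PSMB, PSMC or PSMD followed by a number, which gave 39 of 23368 gene symbols. VCaP cells, an established line of human prostate cancer, carry a fused ERG gene. The cells, at passage p61, had been grown as tumors in athymic nude mice of the strain HSD:Athymic Nude–Foxn1nu, which lack most T cells, and the mice of all groups had been castrated. Treatment started once serum PSA, a product of the tumor cells, was back at its level before castration. The groups were 15 tumors given vehicle, 14 given enzalutamide at 20 mg/kg/day and 15 given ARN-509 (apalutamide) at 20 mg/kg/day, for 4 weeks, all once a day by gavage. Both drugs are antiandrogens.

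All tumors derive from a single cell line, and the stroma and vessels around the cells are of mouse origin. The library enzalutamide 4 held only 80142 counts, 263 of them in 26 members, and was left out, so 43 tumors were compared. The 43 libraries held between 3377450 and 30125000 counts. The prostate lineage label held: all 11 luminal and VCaP markers passed the filter on low counts. Levels are in CPM, the count relative to the TMM-scaled library total. Of 12 leukocyte markers 2 passed the filter, CD68 at a median of 5.44 CPM and FCER1G at 1.28 CPM, while CD3E had 0 counts and PTPRC 4 counts over the 43 tumors. Vehicle 8 stood apart from its group, with a Pearson r of 0.889 to the mean of the other vehicle tumors, over genes with a mean of at least 50 CPM, against a group median of 0.978. The labels do not give a source of the replicates beyond the tumor, so p-values measure the spread between these tumors.

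The 26S proteasome degrades proteins that carry ubiquitin chains. Its 20S core is a stack of alpha rings, which gate the entry, and beta rings, which hold the proteolytic sites. PSMB5, PSMB6 and PSMB7 carry these sites in the constitutive core, and interferon-inducible PSMB8, PSMB9 and PSMB10 take their places in the immunoproteasome. The regulatory particle on top of the core has a base, with a ring of ATPases that unfold substrates, and a lid that removes ubiquitin. When proteasome activity falls short, the transcription factor NFE2L1 raises the subunit genes together through antioxidant response elements in their promoters.

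Of the 39 members, 8 encode core alpha subunits (PSMA1 to PSMA8), 4 structural beta subunits (PSMB1 to PSMB4), 3 constitutive catalytic subunits, 3 immunoproteasome subunits and 1 the thymoproteasome subunit PSMB11. In the regulatory particle 6 encode ATPases (PSMC1 to PSMC6), 3 the other base subunits PSMD1, PSMD2 and PSMD4, 8 the lid, and 3 assembly chaperones (PSMD5, PSMD9 and PSMD10). The filter on low counts passed 36 members. PSMA8, a testis form of the alpha subunit PSMA7, and PSMB11, the thymus form of the catalytic subunit PSMB5, had 0 counts in all 43 tumors, which allows a level of up to 0.0072 CPM over the 43. PSMB9 had too few counts for the test, with 68, 55 and 67 counts summed over the vehicle, enzalutamide and ARN-509 tumors.

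Promoter sequences of 34 members were matched by symbol in RefSeq (GRCh38.p14). They are shown upstream of the start site for the member with the smallest p under ARN-509 (PSMD8), a structural core gene that fell (PSMB3), a lid gene that did not pass the test (PSMD12) and an immunoproteasome gene (PSMB10). Capitals mark the antioxidant response element core TGACNNNGC, the interferon-stimulated response element core (TTTC and TTTC parted by 2 bases), the gamma-activated sequence core TTCNNNGAA, the NF-Y box CCAAT and the ETS core CCGGAAG, on either strand. The 250 bases printed lie at chr19:38374321-38374570 on the + strand for PSMD8, chr17:38752491-38752740 on the + strand for PSMB3, chr17:67366578-67366827 on the - strand for PSMD12 and chr16:67936851-67937100 on the - strand for PSMB10. The counts were made on hg19, so these positions serve only to place the printed sequences.
PSMD8: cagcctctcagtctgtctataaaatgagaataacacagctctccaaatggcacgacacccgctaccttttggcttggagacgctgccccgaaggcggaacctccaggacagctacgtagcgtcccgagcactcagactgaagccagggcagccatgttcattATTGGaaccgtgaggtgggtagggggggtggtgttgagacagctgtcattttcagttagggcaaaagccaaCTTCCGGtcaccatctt
PSMB3: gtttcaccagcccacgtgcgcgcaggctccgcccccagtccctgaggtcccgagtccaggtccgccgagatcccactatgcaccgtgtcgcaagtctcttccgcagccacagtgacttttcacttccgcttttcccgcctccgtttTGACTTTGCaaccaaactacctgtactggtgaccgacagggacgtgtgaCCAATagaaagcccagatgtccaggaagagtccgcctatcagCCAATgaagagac
PSMD12: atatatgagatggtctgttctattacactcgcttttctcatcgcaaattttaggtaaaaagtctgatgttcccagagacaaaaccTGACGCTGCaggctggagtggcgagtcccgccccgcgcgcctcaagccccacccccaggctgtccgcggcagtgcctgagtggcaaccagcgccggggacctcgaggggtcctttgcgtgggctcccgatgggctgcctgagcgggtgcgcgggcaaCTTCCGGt
PSMB10: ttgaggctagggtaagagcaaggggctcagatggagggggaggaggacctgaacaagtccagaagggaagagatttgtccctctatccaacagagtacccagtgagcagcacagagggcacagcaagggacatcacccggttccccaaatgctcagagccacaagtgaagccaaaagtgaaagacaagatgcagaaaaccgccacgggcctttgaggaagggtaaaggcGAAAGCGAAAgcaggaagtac

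The printed sequences hold a CCAAT box and an ETS core for PSMD8, an antioxidant response element core and 2 CCAAT boxes for PSMB3, and an antioxidant response element core and an ETS core for PSMD12. PSMB10 holds an interferon-stimulated response element core. In windows of 300 bases (250 before and 50 after the start), the antioxidant response element core was found for 10 of 34 members (29.4%) and in 13.3% of all 35116 promoters. The CCAAT box was found for 18 members (52.9%) and in 34.6% of all promoters, and the ETS core for 12 members (35.3%) and in 10.3%. The interferon-stimulated core was found for 4 members (11.8%) and in 3.57% of all promoters, and the gamma-activated core for 7 members (20.6%) and in 7.66%. A member was counted if any of its windows held the motif, while the share over all promoters counts each window by itself. Some members have several windows, which can raise the members' share. A match describes the letters of the window, not a bound site.

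In vehicle tumors levels differed widely between and within the classes. Per kb of transcript, the median levels of the alpha genes ran from 16.1 CPM per kb (PSMA5) to 126 CPM per kb (PSMA7). Per kb of coding sequence they ran from 73.9 (PSMA6) to 226 CPM per kb (PSMA4), so range and order depend on the length used. PSMB4, a structural beta subunit, had the highest level of all members at 226 CPM per kb, and the constitutive catalytic genes lay between 39.8 (PSMB6) and 79.5 CPM per kb (PSMB5). The ATPase genes had a class median of 28.8 CPM per kb and the lid genes one of 47.4 CPM per kb.

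The immunoproteasome genes lay below the constitutive catalytic genes. Their median levels were 7.48 CPM per kb for PSMB10, 5.37 CPM per kb for PSMB8 and 0.639 CPM per kb for PSMB9. PSMC1, an ATPase gene, had the lowest median level of the constitutive members at 2.26 CPM per kb, or 7.6 CPM per kb of coding sequence. GENCODE 29 names 13 pseudogenes after PSMC1, more than after any other member (the next being PSMA6 with 4), and how reads shared by such copies were counted is not given in the sources used here, so its level is uncertain.

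**Figure D1:**
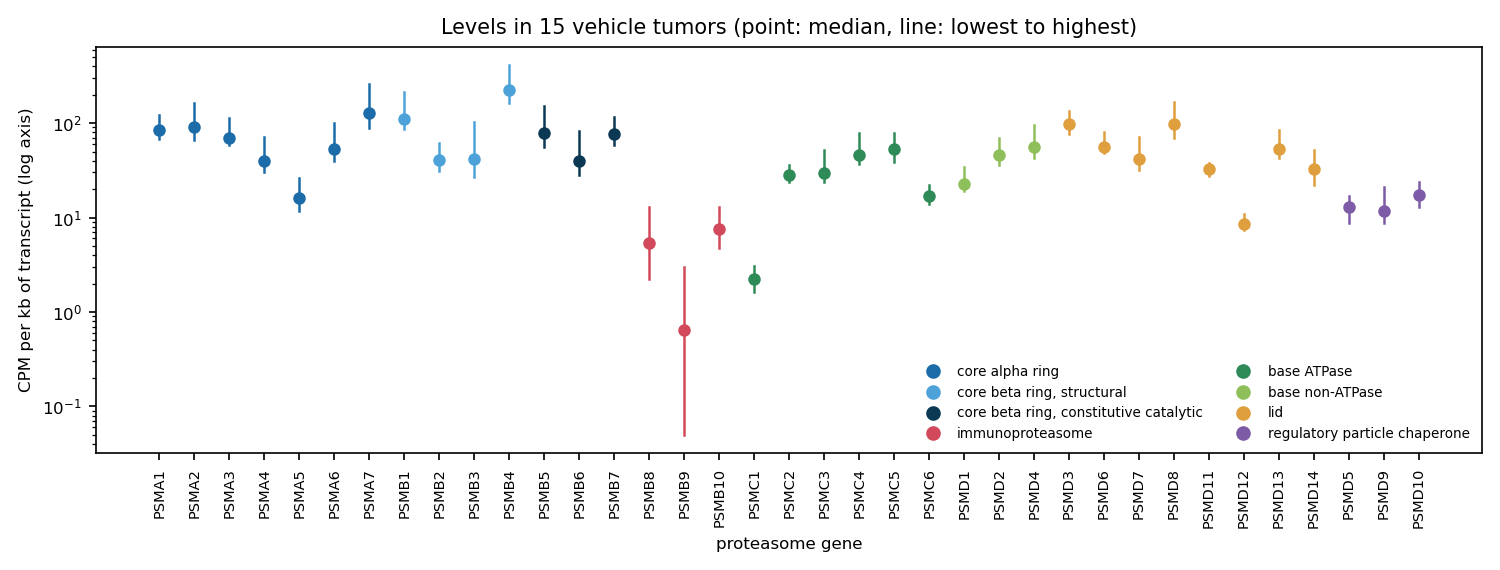
Median level (points) and range (lines) of 37 proteasome genes in 15 vehicle tumors, in CPM per kb of transcript on a log axis, coloured by class. PSMB4 stands highest at 226, while PSMB9, whose line is cut at 0.05 because vehicle 14 had 0 counts, stands lowest at 0.639.

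Members covaried from tumor to tumor. Over all pairs of the 36 tested members, the median Spearman rho across tumors was 0.60 in vehicle, 0.43 in enzalutamide and 0.40 in ARN-509, against medians of 0, 0 and -0.0036 over pairs of all tested genes. The pairs share library depth and composition. Pairs within the constitutive core had medians of 0.79, 0.70 and 0.60, and pairs of PSMB8, PSMB9 or PSMB10 with constitutive members 0.31, 0.17 and 0.24. Pairs of ATPase genes had medians of 0.375, 0.374 and 0.375, also below those of the core. PSMB9, with 190 counts over the 43 tumors, did not pass the filter on low counts. Among the immunoproteasome genes, PSMB8 with PSMB10 had r = 0.53 and rho = 0.44 in 15 vehicle tumors (permutation p = 0.0406 and 0.0997, adjusted 0.288 and 0.499 over 15 relations), and r = 0.71 without the 2 tumors farthest from the median of PSMB8 and 0.43 without vehicle 8. Of the 12 relations among PSMB8, PSMB9, PSMB10, PSMB5 and the peptide transporter gene TAP1, 0 passed the adjustment.

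The first comparison asked how the proteasome genes stood after enzalutamide. Of 36 members, 0 passed the test (edgeR quasi-likelihood test, Benjamini-Hochberg adjustment, threshold 0.05), where 10.8% of the 13520 tested genes did, 5.1% higher and 5.67% lower. The members' median log2 fold change was -0.02, with 28 of 36 below 0, and that of all tested genes was -0.00. Without vehicle 8, 12 of 36 were below 0 and the median was 0.02. By unadjusted p under 0.05 there was 1 member, PSMD1, and DESeq2 and limma also called 0. In bulk tumors fewer cells of a type and less RNA per cell cannot be told apart.

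The smallest p-values of this comparison belonged to PSMD1, PSMD12 and PSMC3. PSMD1, a scaffold subunit of the base, had 63.2, 75.6 and 113 CPM in vehicle and 62.1, 71.2 and 79.5 CPM in enzalutamide tumors (lowest, median and highest). The groups overlapped, and 10 of 13 enzalutamide tumors lay below the vehicle median. The log2 fold change was -0.14 ± 0.06 (SE, adjusted p = 0.166).

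For PSMD12, a lid subunit, the enzalutamide tumors ran from 27.5 through a median of 36.1 to 43.4 CPM and the vehicle tumors from 32.6 through 37.9 to 48.2 CPM, a log2 difference of -0.12 ± 0.07 (adjusted p = 0.259). PSMC3, an ATPase of the base, had a log2 fold change of -0.15 ± 0.08 (adjusted p = 0.292), and of -0.08 without vehicle 8 (adjusted p = 0.486). After the dependence of each library on GC content and length of the transcript (the transcript trend) had been removed, PSMC3 was lower at -0.18 (adjusted p = 0.0157), the only call among the members. In that fit 8.27% of all genes were lower and 6.86% higher. With the trend of the coding sequence removed instead, PSMC3 stood at -0.15 and was not called (adjusted p = 0.171). Over the 34 tested members outside the immunoproteasome, fold changes ran from -0.15 (PSMC3) to 0.15 (PSMD9), and the outermost bounds of their 95% intervals were -0.31 and 0.34.

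**Figure D2:**
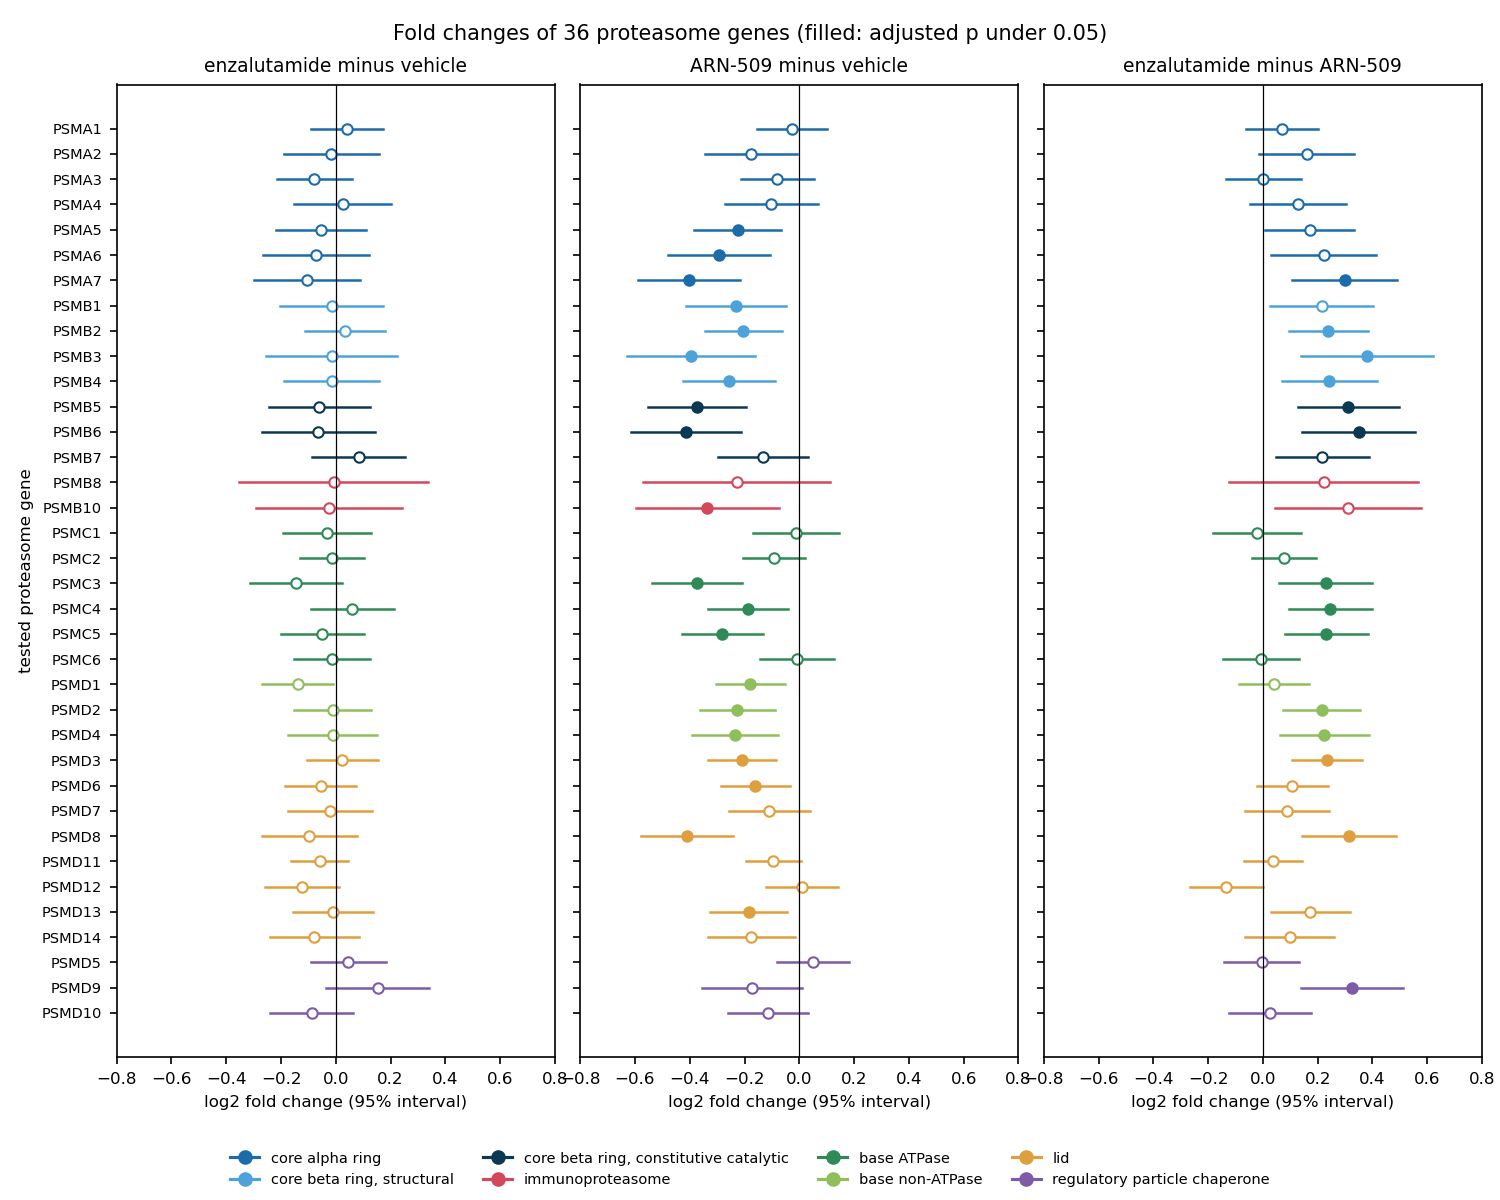
Log2 fold change (points) with 95% interval (lines) of the 36 tested proteasome genes in the 3 comparisons, coloured by class, with filled points for an adjusted p under 0.05. No point is filled for enzalutamide against vehicle, 20 are filled on the lower side for ARN-509 against vehicle, and 14 on the higher side for enzalutamide against ARN-509.

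The second comparison put ARN-509 against vehicle. Proteasome genes of both the core and the regulatory particle were lower: 20 of 36 members passed the test, 20 of them lower and 0 higher. Over all tested genes 30.8% passed, 16.1% lower and 14.7% higher. The members' median log2 fold change was -0.19, with 34 of 36 below 0, beside -0.00 over all tested genes. The falls were small, from -0.16 (PSMD6) to -0.41 (PSMB6), and the ARN-509 and vehicle ranges of all 36 members overlapped.

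By class, 3 of 7 alpha genes, 4 of 4 structural beta genes, 2 of 3 constitutive catalytic genes, 1 of 2 tested immunoproteasome genes, 3 of 6 ATPase genes, 3 of 3 other base genes, 4 of 8 lid genes and 0 of 3 chaperone genes fell. Whether classes differed was not tested. Of the 20 falls, 10 were called in each of 57 alternative fits, 43 of which left out 1 library each: PSMA6, PSMA7, PSMB3, PSMB4, PSMB5, PSMB6, PSMC3, PSMC5, PSMD2 and PSMD8. Scaling by library totals in place of TMM left 11 members lower, with a median of -0.12. It turned the split of all called genes from 1988 higher and 2178 lower to 2713 higher and 1466 lower.

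PSMD8, a lid subunit, had the smallest p. Its level was 107, 151 and 262 CPM in vehicle, 126, 152 and 173 CPM in enzalutamide and 104, 121 and 145 CPM in ARN-509 tumors (lowest, median and highest). All 15 ARN-509 tumors lay below the vehicle median, and 2 of them below the lowest vehicle tumor, vehicle 10, while vehicle 8 was the highest of all. The log2 fold change was -0.41 ± 0.08 (edgeR quasi-likelihood test, adjusted p = 0.000249), and the level fell by 24.7%. It was -0.24 (adjusted p = 0.000177) with the transcript trend removed.

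PSMC3, which encodes an ATPase of the base, ranged from 37.4 through a median of 46.8 to 81.2 CPM in vehicle, from 39.5 through 45.3 to 55.4 CPM in enzalutamide and from 31.7 through 37.4 to 47.6 CPM in ARN-509 tumors. Below the vehicle median lay 14 of 15 ARN-509 tumors, and 7 lay below the lowest vehicle tumor. Its log2 fold change was -0.37 ± 0.08 (adjusted p = 0.00063), and -0.22 with the transcript trend removed. The ATPase genes PSMC5 and PSMC4 also fell, by 0.28 and 0.19 on the log2 scale (adjusted p = 0.00359 and 0.0462). The call of PSMC4 was lost without any 1 of vehicle 7, 8, 9, 11, 12 or 14 or ARN-509 1, 2, 6, 9, 10, 12, 14 or 15 (adjusted p up to 0.11). PSMC6 stood at -0.01 ± 0.07 (95% interval -0.14 to 0.13) and PSMC1 at -0.01 ± 0.08. With the transcript trend removed PSMC6 was at -0.15 and PSMC4 at -0.04, neither of them called (adjusted p = 0.0875 and 0.543), and no difference between ATPase genes was tested.

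In the alpha ring 3 genes fell, PSMA7 with the smallest p. Its vehicle tumors held 89.4, 126 and 260 CPM, its enzalutamide tumors 106, 127 and 153 CPM and its ARN-509 tumors 82.8, 99.6 and 131 CPM (lowest, median and highest). ARN-509 4 was the highest of its group, and 13 of 15 ARN-509 tumors lay below the vehicle median. The log2 fold change was -0.40 ± 0.09 (adjusted p = 0.00105), and -0.24 with the transcript trend removed. PSMA6 and PSMA5 fell by 0.29 and 0.23 (adjusted p = 0.0142 and 0.0263), and PSMA5 missed the threshold without vehicle 7 or vehicle 8 (adjusted p up to 0.0602). With the transcript trend removed PSMA5 and PSMA6 stood at -0.45 and -0.25, and with the coding sequence trend removed PSMA6 stood at -0.37 beside -0.35 for PSMA7, so the order of these falls depends on the processing. PSMA1 stood at -0.03 ± 0.06 (95% interval -0.15 to 0.10).

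Of the constitutive catalytic genes, PSMB5 encodes the chymotrypsin-like subunit, the main target of proteasome inhibitors. It had 72.0, 103 and 198 CPM in vehicle, 88.2, 102 and 124 CPM in enzalutamide and 70.0, 81.3 and 111 CPM in ARN-509 tumors (lowest, median and highest). The highest vehicle tumor was vehicle 8, and 14 of 15 ARN-509 tumors lay below the vehicle median. The log2 fold change was -0.37 ± 0.09 (adjusted p = 0.00162), and -0.24 with the transcript trend removed.

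PSMB6, the caspase-like subunit, ran from 23.8 through 33.9 to 70.5 CPM in vehicle, from 27.9 through 34.0 to 43.1 CPM in enzalutamide and from 22.1 through 27.0 to 34.1 CPM in ARN-509 tumors. As for PSMB5, 14 of 15 ARN-509 tumors lay below the vehicle median. Its log2 fold change was -0.41 ± 0.10 (adjusted p = 0.00175), and -0.23 with the transcript trend removed. PSMB7, the trypsin-like subunit, did not pass: 56.9, 74.9 and 112 CPM in vehicle stood against 55.0, 67.5 and 79.8 CPM in ARN-509 tumors, and the log2 difference was -0.13 ± 0.08 (95% interval -0.30 to 0.03, adjusted p = 0.208).

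The 4 structural beta genes all fell. PSMB3 had 20.7, 32.1 and 78.5 CPM in vehicle and 19.0, 27.0 and 35.1 CPM in ARN-509 tumors. Of the ARN-509 tumors 13 of 15 lay below the vehicle median, and the log2 fold change was -0.40 ± 0.12 (adjusted p = 0.0091), and -0.21 with the transcript trend removed (adjusted p = 0.0152). Without vehicle 8 it was -0.28 (adjusted p = 0.0228). PSMB2 stood at -0.20 ± 0.07 (adjusted p = 0.0237, and 0.0504 without vehicle 8), and at -0.23 with the transcript trend removed, below the -0.21 of PSMB3 in that fit. PSMB1 had a log2 fold change of -0.23 (adjusted p = 0.0475), and of -0.15 without vehicle 8. The call was lost without any 1 of vehicle 3, 4, 7, 8, 9, 14 or 15, enzalutamide 7 or 12, or ARN-509 1, 2, 3, 6, 7, 8, 10, 11, 12, 14 or 15 (adjusted p up to 0.125).

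Among the other base genes PSMD4, a ubiquitin receptor, had a log2 fold change of -0.24 ± 0.08 (adjusted p = 0.0202), PSMD2 one of -0.23 (adjusted p = 0.0101) and PSMD1 one of -0.18 (adjusted p = 0.0251, and 0.0529 without vehicle 8). PSMD4 stood at -0.10 with the transcript trend removed and was then not called (adjusted p = 0.0852). In the lid, PSMD3, PSMD13 and PSMD6 fell by 0.21, 0.19 and 0.16 (adjusted p = 0.00882, 0.0397 and 0.044). PSMD3 stood at -0.075 with the transcript trend removed and was then not called (adjusted p = 0.195). PSMD13 missed the threshold without any 1 of vehicle 4, 7, 8 or 9 or ARN-509 1, 6, 9, 10, 11, 14 or 15 (adjusted p up to 0.0892). PSMD6 did so without any 1 of vehicle 7, 8, 9, 14 or 15 or ARN-509 1, 2, 3, 6, 8, 9, 10, 11, 14 or 15 (adjusted p up to 0.0874). PSMD12 stood at 0.01 ± 0.06 in the same comparison (adjusted p = 0.917), and its ARN-509 tumors ran from 29.5 through 38.6 to 46.8 CPM.

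The call of PSMD12 depended on the processing. From 0.01, not called, it became lower at -0.18 (adjusted p = 0.0081) once the transcript trend was removed. It was also lower, at -0.13 (adjusted p = 0.0471), with the coding sequence trend removed. Of the assembly chaperones, which leave the particle before it is complete, PSMD5 stood at 0.05 ± 0.07 (95% interval -0.08 to 0.18), PSMD10 at -0.11 ± 0.07 and PSMD9 at -0.17 ± 0.09 (adjusted p = 0.138).

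**Figure D3:**
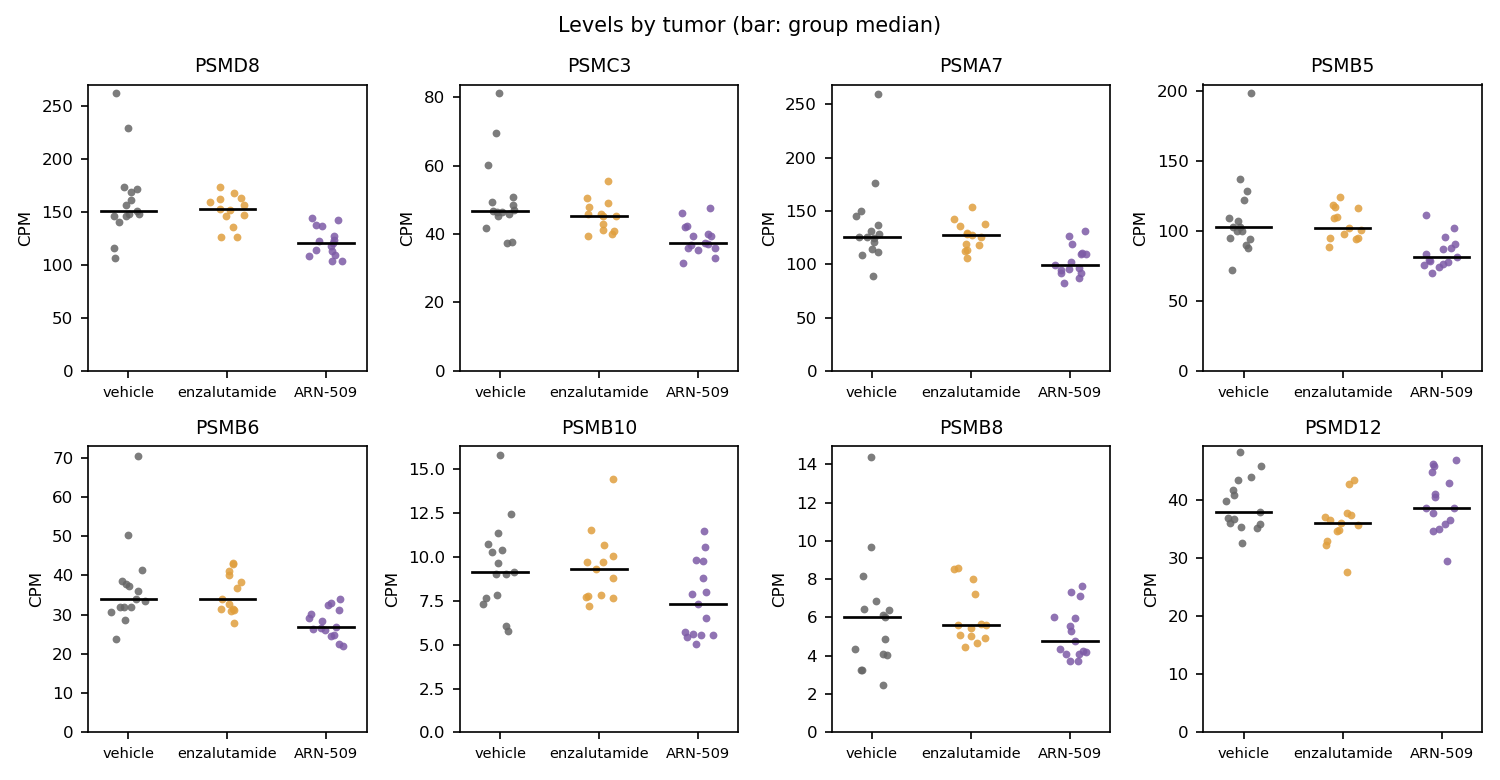
Level in CPM of 8 proteasome genes in each of 43 tumors by group, with a bar at the group median; the axes start at 0. The ARN-509 points of PSMD8, PSMC3, PSMA7, PSMB5 and PSMB6 lie mostly below the vehicle bar, with 15, 14, 13, 14 and 14 of 15 tumors below it, while those of PSMD12 lie on both sides.

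The immunoproteasome genes were low in all groups. PSMB10 had 5.75, 9.11 and 15.8 CPM in vehicle, 7.2, 9.33 and 14.5 CPM in enzalutamide and 5.04, 7.3 and 11.5 CPM in ARN-509 tumors (lowest, median and highest). Of the ARN-509 tumors, 11 of 15 lay below the vehicle median and 6 below the lowest vehicle tumor, vehicle 10. The log2 fold change was -0.34 ± 0.13 (adjusted p = 0.0437), and the call held in 28 of the 43 fits that left out 1 library. It was lost without any 1 of vehicle 4, 7, 8, 12, 13, 14 or 15 or ARN-509 1, 6, 8, 10, 12, 13, 14 or 15 (adjusted p up to 0.0963), and with the transcript or the coding sequence trend removed (-0.15 and -0.21, adjusted p = 0.218 and 0.094).

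The libraries do not mark strand, so reads of PSMB8 and of its antisense neighbour PSMB8-AS1 cannot be told apart. PSMB8 varied widely between vehicle tumors, from 2.48 in vehicle 13 through a median of 6.03 to 14.4 CPM in vehicle 12. The enzalutamide tumors ran from 4.48 through 5.6 to 8.57 CPM and the ARN-509 tumors from 3.72 through 4.78 to 7.66 CPM, so that both drug groups lay within the vehicle range. Neither difference passed the test, with log2 fold changes of -0.01 ± 0.17 (95% interval -0.35 to 0.34) for enzalutamide and -0.23 ± 0.17 (-0.57 to 0.11, adjusted p = 0.301) for ARN-509.

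PSMB9 had a median of 0.5 CPM in vehicle, 0.364 CPM in enzalutamide and 0.398 CPM in ARN-509 tumors. Its highest level was 2.33 CPM in vehicle 12, which also had the highest level of PSMB8, and vehicle 14 had 0 counts, which allows up to 0.482 CPM. Without the filter on low counts its adjusted p-values were 0.557, 0.381 and 0.964 for enzalutamide against vehicle, ARN-509 against vehicle and enzalutamide against ARN-509.

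Each immunoproteasome subunit was then set against the constitutive subunit that it replaces, in the same library, which cancels the scaling between libraries. The transcript trend does not cancel where the genes of a pair differ in GC content or length. The ratios were not tested with that trend removed. PSMB8 held 4.88% of the counts of PSMB5 at the median of vehicle, 5.3% in enzalutamide and 5.36% in ARN-509 tumors, with ranges of 2.64% to 14.0%, 3.61% to 8.44% and 4.54% to 9.6%. PSMB10 held 12.02%, 11.1% and 10.98% of the counts of PSMB7, and PSMB9 1.56%, 1.03% and 1.51% of those of PSMB6. These shares are not corrected for transcript length, and the groups overlapped in each.

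Of the 9 tests of these ratios, 0 passed (permutation tests of 100000 resamples, two-sided, adjusted over the 9), and 0 had an unadjusted p under 0.05. The log2 ratio of PSMB8 to PSMB5 was higher by 0.23 ± 0.17 (SE) in ARN-509 than in vehicle tumors (permutation p = 0.182, adjusted 0.568). That of PSMB10 to PSMB7 was -0.22 ± 0.14 in the same comparison (permutation p = 0.129, adjusted 0.568), and that of PSMB9 to PSMB6 was 0.02 ± 0.41 (permutation p = 0.953).

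The third comparison set the drugs side by side, the only pair of compounds in the study, at equal dose and time. Enzalutamide tumors had higher levels than ARN-509 tumors for 14 of 36 members, 14 higher and 0 lower, where 26.8% of all tested genes passed, 12.2% higher and 14.6% lower. The members' median log2 difference was 0.22, beside 0.01 over all tested genes. The comparison shares its tumors with those against vehicle, so its calls are not a further observation of the fall under ARN-509. Scaling by library totals left 14 members higher and moved the split of all called genes from 1647 higher and 1976 lower to 1202 and 2263.

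The smallest p-values here were those of PSMD8, PSMD3 and PSMD9. For PSMD8 all 15 ARN-509 tumors lay below the enzalutamide median, and the log2 difference was 0.31 ± 0.09 (adjusted p = 0.00868). PSMD3, a lid subunit, had 183, 227 and 250 CPM in enzalutamide, 158, 188 and 226 CPM in ARN-509 and 167, 212 and 289 CPM in vehicle tumors. Again all 15 ARN-509 tumors lay below the enzalutamide median, and the log2 difference was 0.23 ± 0.06 (adjusted p = 0.00879).

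PSMD9, a chaperone of the base, had 30.5, 38.1 and 47.9 CPM in enzalutamide against 23.3, 30.4 and 37.5 CPM in ARN-509 tumors (lowest, median and highest), a log2 difference of 0.33 ± 0.09 (adjusted p = 0.0113). The groups overlapped, with all 15 ARN-509 tumors below the enzalutamide median. In the core, PSMB3, PSMB6, PSMB5, PSMA7, PSMB4 and PSMB2 were higher by 0.38, 0.35, 0.31, 0.30, 0.24 and 0.24, and PSMB7 missed the threshold at 0.22 (adjusted p = 0.0506). PSMC4, PSMC5 and PSMC3 were higher by 0.25, 0.23 and 0.23, and PSMD4 and PSMD2 by 0.22 each. PSMB4, PSMC3 and PSMD4 were called in 34, 32 and 31 of the 43 fits that left out 1 library (adjusted p up to 0.0639, 0.0752 and 0.0654); each was lost without enzalutamide 5, 7, 9 or 11 or ARN-509 1, 6 or 14, PSMB4 also without enzalutamide 6 or ARN-509 10, PSMC3 without enzalutamide 6 or ARN-509 8, 12 or 15, and PSMD4 without enzalutamide 12 or 14 or ARN-509 10, 12 or 15.

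Differences between the drugs depended on the treatment of GC content. With the transcript trend removed, 3 members were higher (PSMA5, PSMB2 and PSMC2), 1 of them shared with the 14. The background in that fit fell to 5.08%, with 2.83% of all genes higher and 2.24% lower. With the trend of the coding sequence removed 14 members were higher, 8 of them shared, where 8.43% of all genes were higher and 7.2% lower. Only PSMB2 was called in each of the 57 alternatives. PSMB2 had a log2 difference of 0.24 ± 0.07 (adjusted p = 0.0152). Where the drugs did not differ by the test, the bounds differed between genes: PSMA3 stood at 0.00 (95% interval -0.14 to 0.14), PSMC6 at -0.01 (-0.14 to 0.13) and PSMD5 at -0.00 (-0.14 to 0.13), but PSMB8 at 0.22 (-0.12 to 0.57), PSMB10 at 0.31 (0.04 to 0.58) and PSMD12 at -0.13 (-0.27 to 0.00).

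The members' fold changes varied with the GC content of their transcripts. Under ARN-509 against vehicle the Spearman rho between GC content and log2 fold change was -0.70 over the 36 members and -0.41 over the 12048 tested genes with a known transcript, and between the drugs it was 0.76 and 0.61. Against vehicle it was 0.09 and 0.21 for enzalutamide. Genes are not independent replicates, so these are descriptions. Of the 16 members with a GC content of at least 50%, 14 were lower under ARN-509, and of the other 20 members 6 were; over all tested genes the shares were 25.8% and 8.08%.

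Removing the transcript trend left 20 members lower under ARN-509, 14 of them shared with the 20 above, with a median of -0.16, where 17.1% of all genes in that fit were lower. A version with the coding sequence in place of the transcript, chosen after seeing the data, left 25 lower, 18 of them shared, with a median of -0.20, where 19.0% of all genes in that fit were lower. Members called in all 3 fits were 14: PSMA5, PSMA6, PSMA7, PSMB2, PSMB3, PSMB4, PSMB5, PSMB6, PSMC3, PSMC5, PSMD1, PSMD2, PSMD6 and PSMD8. The members lost with the transcript trend removed were PSMB1, PSMB10, PSMC4, PSMD3, PSMD4 and PSMD13.

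**Figure D4:**
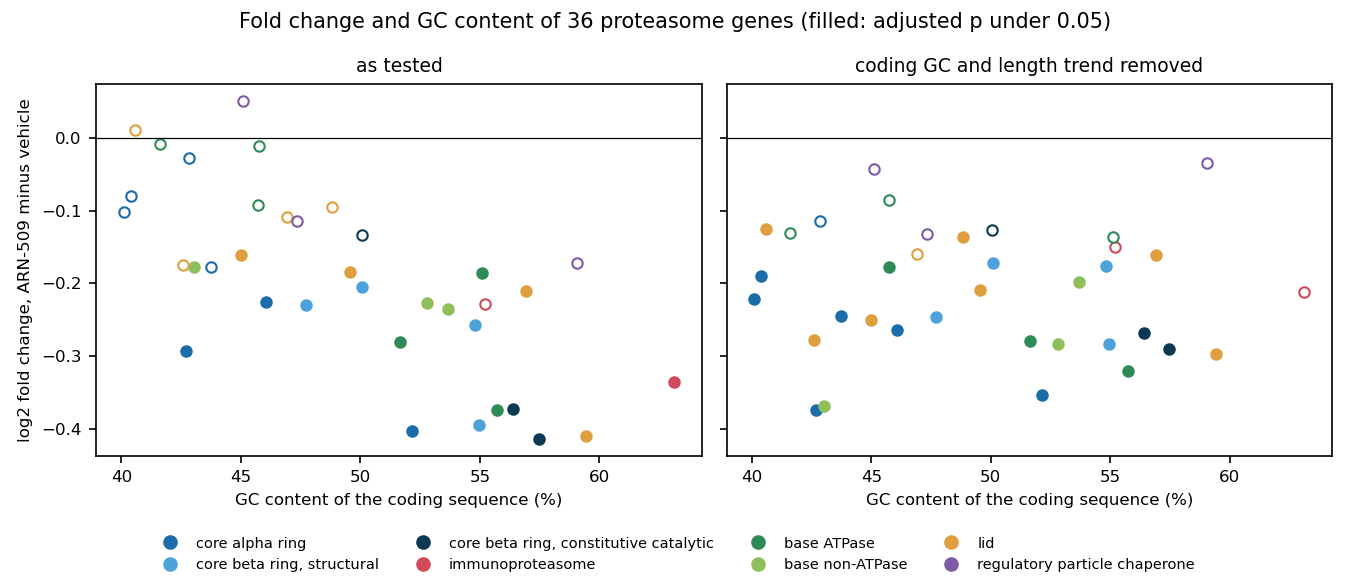
Log2 fold change of the 36 tested proteasome genes under ARN-509 against vehicle, by GC content of the coding sequence in percent, as tested (left) and after removal of the trend with coding GC and coding length from each library (right); filled points have an adjusted p under 0.05. On the left, 20 points are filled and the GC-rich genes lie lowest, while on the right 25 are filled and all 36 lie below 0.

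Tumors of a group also stood apart from each other. The median of the 36 members, as log2 against the vehicle mean, ran from -0.39 in vehicle 10 through -0.04 to 0.70 in vehicle 8. It ran from -0.23 through -0.01 to 0.13 in enzalutamide tumors and from -0.35 through -0.20 to 0.06 (ARN-509 4) in ARN-509 tumors. Vehicle 8 had the highest level of all 43 tumors for 30 of 36 members, and vehicle 10 the lowest of the vehicle tumors for 24. Vehicle 8 also had the steepest GC trend of the vehicle libraries, 0.32 per 10 percentage points of GC on the log2 scale. The trend of enzalutamide 9 was 0.33, with a members' median of -0.025.

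Over the 15 vehicle tumors the members' median rose with the library's GC trend, with r = 0.87 and rho = 0.80 (permutation p = 2e-05 and 0.00081, adjusted 0.0003 and 0.0121 over 15 relations). Without the 2 tumors farthest from the median trend, vehicle 7 and vehicle 8, r was 0.66. In the 13 enzalutamide tumors r was 0.23 and in the 15 ARN-509 tumors 0.23 (permutation p = 0.457 and 0.401, rho = 0.32 and 0.35 with permutation p = 0.278 and 0.202), and without the 2 farthest tumors 0.69 and 0.42. This relation was chosen after seeing the data. Without vehicle 8, 12 members were lower under ARN-509, with PSMA5, PSMB1, PSMB2, PSMB10, PSMC4, PSMD1, PSMD6 and PSMD13 lost, and without vehicle 10 there were 22. In the fit without vehicle 8 the median of the 36 members was -0.14, with 32 below 0. Shares over all genes in these fits are not given here.

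**Figure D5:**
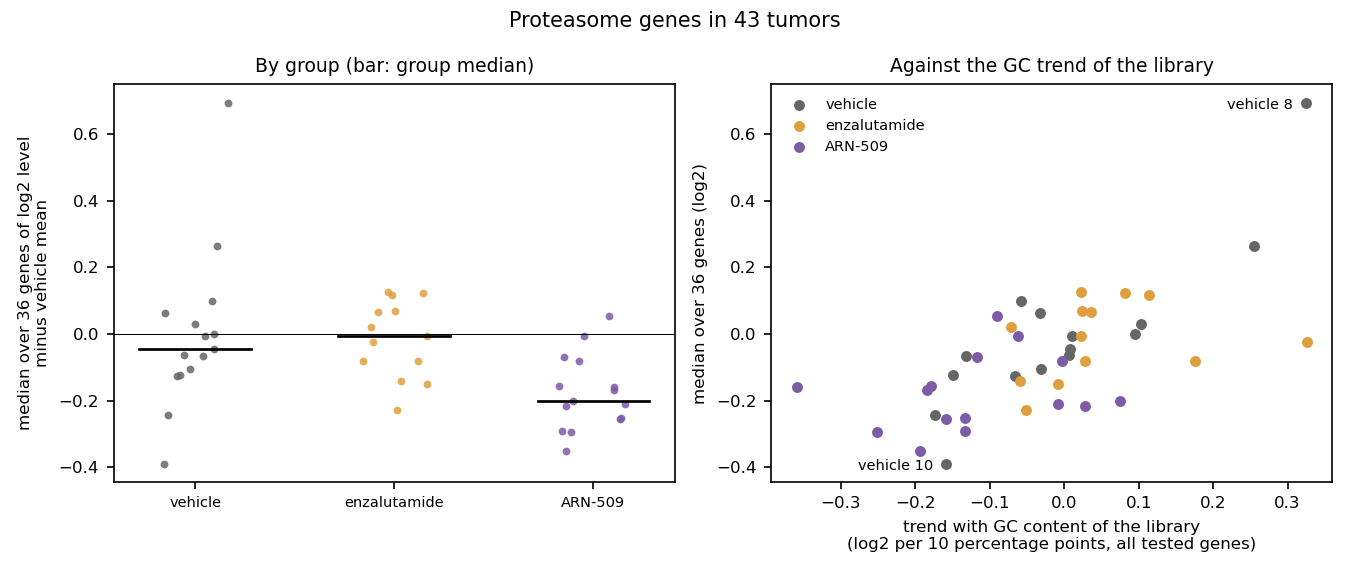
Median over the 36 tested proteasome genes of the log2 level minus the vehicle mean in each of 43 tumors, by group with a bar at the group median (left) and against the trend of the library with GC content, in log2 per 10 percentage points over all tested genes (right). Vehicle 8 stands highest at 0.70, vehicle 10 lowest at -0.39, and the ARN-509 bar lies at -0.20.

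Markers of other cells were low. The summed level of the 6 endothelial markers ran from 2.66 to 7.38 CPM in vehicle, 0.926 to 3.36 CPM in enzalutamide and 0.607 to 2.72 CPM in ARN-509 tumors, with medians of 4.76, 1.94 and 1.32 CPM and CDH5 at 7 counts in all. Below the lowest vehicle tumor lay 11 of 13 enzalutamide and 13 of 15 ARN-509 tumors. Of these 6 markers 0 passed the filter on low counts, so none was tested. The highest counts over the 43 tumors were 438 for VWF, 312 for PECAM1 and 256 for CLDN5. The 12 leukocyte markers summed to between 5.14 and 12.4, 6.07 and 14.7, and 5.46 and 13.1 CPM. The 6 fibroblast and 4 erythroid markers had median sums of 4.92, 5.05 and 5.44 CPM and of 1.06, 1.11 and 1.16 CPM. Their part in the members' differences was not tested. How reads of the mouse host were treated is not given in the sources used here.

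Genes that work with the proteasome are given by list. Of 5 core activators and their inhibitor 1 was lower under enzalutamide (PSME4) and 0 passed under ARN-509. Of 5 core assembly chaperones 0 passed in any comparison. Of 7 further 26S subunits and bound enzymes 1 was lower under each drug: UCHL5 under enzalutamide (-0.20, adjusted p = 0.0416) and ADRM1 under ARN-509. The calls of PSME4 and UCHL5 held in 26 and 29 of the 43 fits that left out 1 library (adjusted p up to 0.0909 and 0.0781). Both were also lost with library totals, no filter, the replicate block, only the groups compared, enzalutamide 4 included and each removal of a GC and length trend. With the transcript trend removed PSME4 stood at -0.19 (adjusted p = 0.0912) and UCHL5 at -0.096 (adjusted p = 0.414). Of 13 genes of ubiquitin and substrate delivery 0 passed under enzalutamide, while 7 were lower and 1 higher under ARN-509.

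ADRM1, a ubiquitin receptor of the base, had 45.1, 60.3 and 116 CPM in vehicle and 38.6, 51.4 and 64.3 CPM in ARN-509 tumors, a log2 fold change of -0.39 ± 0.10 (adjusted p = 0.00361). UFD1L, a partner of the segregase VCP, had a log2 fold change of -0.26 ± 0.06 (adjusted p = 0.00245). The ubiquitin gene UBB fell by 0.26, VCP by 0.21 and the ubiquitin-activating enzyme UBA1 by 0.17. The one gene of the list that rose was UBQLN2, a shuttle factor, by 0.15 (adjusted p = 0.0402, called in 29 of the 43 fits that left out 1 library and at 0.05 with the transcript trend removed, adjusted p = 0.403).

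Of the 4 genes of transcriptional control, NFE2L2 fell under both drugs. NFE2L2, which activates antioxidant genes, had 26.2, 33.6 and 45.5 CPM in vehicle, 19.6, 23.0 and 25.5 CPM in enzalutamide and 17.5, 24.2 and 36.9 CPM in ARN-509 tumors. All enzalutamide tumors lay below the lowest vehicle tumor, vehicle 11. Its log2 fold changes were -0.57 ± 0.09 (adjusted p = 3.65e-06) and -0.41 ± 0.08 (adjusted p = 0.000213), and both calls held in all alternatives run. NFE2L1, the activator of proteasome genes, stood at -0.04 ± 0.07 and -0.16 ± 0.07 (adjusted p = 0.776 and 0.0659).

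Of the 11 tested genes of interferon-inducible antigen processing, 2 were lower under enzalutamide (ERAP2 and TAP2) and 2 under ARN-509 (ERAP2 and IRF1, the latter called in 27 of the 43 fits that left out 1 library and at an adjusted p of 0.0531 with the transcript trend removed). ERAP2, a peptidase that trims peptides for class I molecules, had 7.54, 10.9 and 16.8 CPM in vehicle, 5.82, 7.15 and 8.97 CPM in enzalutamide and 6.1, 8.48 and 10.5 CPM in ARN-509 tumors. The log2 fold changes were -0.71 ± 0.11 (adjusted p = 4.05e-06) and -0.44 ± 0.10 (adjusted p = 0.00111). TAP2, which carries peptides into the endoplasmic reticulum, was at -0.27 ± 0.08 (adjusted p = 0.0278) under enzalutamide, and the call was lost without vehicle 4, enzalutamide 5 or enzalutamide 7 (adjusted p up to 0.0632). It was also lost with library totals, the replicate block and the fit of only the groups compared (adjusted p = 0.0586, 0.0686 and 0.058).

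Between the drugs, 1 activator or inhibitor gene was higher under enzalutamide and 1 lower, as were 1 and 1 of the further subunits and bound enzymes, and 4 and 2 of the genes of ubiquitin and substrate delivery. The smallest p-values were those of UBA1 (0.19 ± 0.05, adjusted p = 0.00768), the deubiquitinase gene USP14 (-0.20 ± 0.05, adjusted p = 0.00856), UBQLN2 (-0.20 ± 0.06, adjusted p = 0.014) and UBB (0.28 ± 0.08, adjusted p = 0.0155). With the transcript trend removed none of these 4 was called, at 0.10, 0.07, -0.07 and 0.12 (adjusted p = 0.122, 0.4, 0.378 and 0.15).

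Members that fell had promoters with and without each motif. Of the 9 tested members with an antioxidant response element core 5 were lower under ARN-509, with a median log2 fold change of -0.18, and of the 22 without it 11 were, with a median of -0.18. With the CCAAT box 9 of 16 were lower and without it 7 of 15. With the ETS core, which PSMD8 and PSMD12 above both hold, 4 of 11 were lower and without it 12 of 20. These counts are a description.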

How the data were processed

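RNA was extracted from VCaP tumors and sequenced from libraries made with the TruSeq RNA v2 kit, per the labels' protocols. The table that the authors deposited holds whole read counts, not normalized, by gene symbol. The submitters' processing notes name HTSeq 0.6.1, TopHat2 2.1.0, the build hg19, Picard 1.77 and bcl2fastq 1.8.4; the annotation is not given in the sources used here. Counts were scaled by TMM, filtered with filterByExpr (13520 of 23368 genes kept) and tested with edgeR 4.0.16 (quasi-likelihood, robust, 3 groups, 43 libraries) under R 4.3.3, with Benjamini-Hochberg adjustment over all tested genes and a threshold of 0.05. Levels are CPM, and log2 levels used a prior of 0.5 CPM. Standard errors came from the F statistic, and intervals of 95% from its degrees of freedom. Per library, the dependence on GC content and length was taken out by splines of 4 degrees of freedom (GENCODE 29, known for 89.1% of tested genes). Alternatives were DESeq2 1.42.0, limma 3.58.1, other scalings and filters, a replicate block and leaving out libraries. The edgeR script was tested on simulated data. Intervals cover the fitted spread between tumors, with the counting error as a lower bound, while floors (3 counts) cover counting error only.

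The members, classes and lists were chosen with earlier results of these data known. Full values are given for the catalytic and immunoproteasome genes, the 3 members with the smallest p in each comparison, the largest and smallest fold change of each class, and up to 4 genes of the other lists per comparison. No pair of libraries had identical counts. Some genes of the lists are counted with their list but not reported here by name.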

Additional observations from a re-analysis of the deposited data

How the results depend on the processing

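Under ARN-509 against vehicle, 20 members were called; scaling by library totals left 11, and leaving out 1 library gave 12 (without vehicle 8) to 22 (without vehicle 10). For enzalutamide against vehicle, 0 members became 1 (PSMC3) with the transcript GC and length trend removed and 1 with the replicate block added to it, and stayed at 0 without each library. Between the drugs, 14 members became 3 with that trend removed, 5 with the block added, and 11 (without enzalutamide 5) to 20 (without vehicle 8) with 1 library left out. Over all genes, 2.83% were higher between the drugs with that trend removed and 3.09% with the block added. Under enzalutamide against vehicle, 8.27% of all genes were lower and 6.86% higher with that trend removed. With the block added these shares were 7.5% and 6.55%.

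Same-numbered tumors mostly did not deviate together: correlations ran from -0.31 to 0.57, with 3 of 13, 5 of 15 and 4 of 13 pairs over 0.1. The labels do not say what the numbers mean, and these correlations cannot exclude a pairing. With the replicate block 0, 17 and 14 members were called, and the shares over all genes in that fit are not given here. In 1, 3 and 0 pairs was the correlation best with the own number.

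PSMD12 stood at 0.01 under ARN-509 in the main fit and was not called. With the transcript or the coding sequence trend removed it was called lower, so both its sign and its call changed. Signs reversed for PSMD12 under ARN-509 (-0.18 with the transcript trend removed, -0.18 with the block added, -0.13 with the coding sequence trend) and USP14 under ARN-509 (-0.14 and -0.13). Between the drugs they reversed for PSME4 (0.013, 0.029 and 0.076), USP14 (0.074 and 0.087) and PSMF1 (-0.0061 with the coding sequence trend). The cause was not tested. Of 6156 values of single members under the alternatives, 5884 stayed on their side of the threshold without a reversal of a call, 5665 of them with the same sign and 219 with the other. Over all genes limma called 2547 for 1455 under enzalutamide and 5707 for 3623 between the drugs, where the transcript and coding sequence trends left 611 and 1814. Library totals moved the enzalutamide split from 689 higher and 766 lower to 838 and 600. The ratio tests kept their side of the threshold in each alternative. PSMB9, at 190 counts, is limited by depth.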
